A study of Mus musculus with 35 samples.

Results

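Striatal RNA of all 18 *Htt* Q111/+ mice was compared with that of all 17 *Htt*+/+ mice, 35 of 35 libraries in the series, with *Hdac2* genotype as a covariate. The fit also held 9 surrogate variables, which are estimates of unlabelled variation between libraries. The members were chosen by the *Htt* genotype that the sample labels give, and no measured value was used. The difference is the effect of the *Htt* Q111 allele averaged over mice with and without *Hdac2* in their medium-spiny neurons (MSNs). Bulk RNA-seq was made from the striatum, with 1 library per mouse, at 21.7 to 23.0 weeks of age. The mice without the expanded allele were 8 *Hdac2* WT and 9 *Hdac2* KO animals, and those with it were 7 *Hdac2* WT and 11 *Hdac2* KO animals. In the *Htt* Q111 allele the mouse *Htt* gene holds an expanded CAG repeat, placed there by knock-in and here 110 to 144 units long, and its carriers have a wild-type allele beside it. *Hdac2* KO mice have both *Hdac2* alleles flanked by loxP sites and a Cre transgene under the *Ppp1r1b* (DARPP-32) promoter, which removes *Hdac2* from MSNs and leaves it in other striatal cells. Cre was present in none of the *Hdac2* WT mice. These carry the floxed alleles without Cre, except for 2 *Htt*+/+ mice with a single floxed allele.

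MSNs make up most neurons of the striatum and use GABA as their transmitter. Those of the direct pathway carry the dopamine receptor DRD1 and make substance P, and those of the indirect pathway carry DRD2 and the adenosine receptor ADORA2A and make enkephalin. In both, dopamine and adenosine act through cyclic AMP (cAMP), protein kinase A and DARPP-32, and lower expression of genes for this signalling is a known feature of the striatum in Huntington's disease and its mouse models.

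The libraries held 50970712 to 77867348 counts on genes, with a median of 57322618. Total counts did not separate the *Htt* groups (two-sided permutation test with labels permuted within *Hdac2* genotype, p = 0.278), nor did the share of ERCC spike-ins, which ranged from 0.372% to 1.32% (p = 0.752), or that of mitochondrial genes, which ranged from 6.86% to 12.1% (p = 0.542). Mouse IDs begin with A, V or Z, and every ID series holds both *Htt* genotypes: 5 *Htt* Q111/+ and 3 *Htt*+/+ mice in series A, 8 and 8 in V, 5 and 6 in Z. Repeat lengths were 110 to 118 in series A, 131 to 144 in V and 110 to 115 in Z, so that the longer repeats of series V and its ID series cannot be told apart. Defining MSN genes were abundant in every library, and the *Htt*+/+ mice had 1419 to 1988 CPM (counts scaled to a common library size by TMM) of *Ppp1r1b*.

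Some libraries stood apart. The 3 *Htt*+/+ mice of series A (*Hdac2* WT replicates 1 and 2 and *Hdac2* KO replicate 1) lay outside the range of the other 32 libraries in 20 of the 544 genes tested on chromosome 17 below 45 Mb, and in 7 of the 16802 genes tested elsewhere. *Htt* Q111/+ *Hdac2* WT replicate 7 had a summed level of cortical neuron markers of 686 CPM, and the highest value among all other libraries was 326. Both sets were left out in turn, an alternative that for the 3 mice was chosen after the data were seen.

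Of 17346 genes tested, 169 had an adjusted p under 0.05 (edgeR quasi-likelihood F test, Benjamini-Hochberg; 0.974% of genes) and are called here. Of these, 119 fell (0.686%) and 50 rose (0.288%). The changes were small: the median log2 fold change was −0.20 among genes that fell and 0.15 among those that rose, beside 0.000186 over all genes tested, and 119 of the 169 had a size under 0.3. At an unadjusted p under 0.05 there were 1993 genes (11.5%), where 867.3 would be expected without any effect. A fit with *Hdac2* genotype and no surrogate variables also called 169 genes, of which 79 were among the 169 reported. Of the 169 reported, 168 had the same direction in that fit. In no gene did the *Htt* groups stay apart over all 35 libraries. The 169 calls included 153 protein-coding genes and 6 pseudogenes, and 59 of them lie over another gene of the table, as do 6285 of all 17346 tested genes, so that their counts may include reads of that gene and are uncertain to that extent. Among the genes described here this holds for *Ppp1r1b*, *Penk*, *Pde10a*, *Arpp21*, *Jun*, *Cacna2d3*, *Kcnab1*, *Gpd1*, *Lrrtm4*, *Bag4*, *Fndc9*, *Sbsn*, *Melk*, *Macrod1*, *Miat*, *Ccdc108*, *Rpl7l1*, *Rps18*, *H2-T22*, *Bricd5*, *C920025E04Rik* and *Gm10260*.

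The size of the count rested on a few libraries. Without *Htt*+/+ *Hdac2* KO replicate 1, 64 genes were called, 11 up and 53 down. Rising genes numbered 31 without *Htt* Q111/+ *Hdac2* WT replicate 7, 31 and 33 without *Htt*+/+ *Hdac2* KO replicates 2 and 3, and 32 without *Htt*+/+ *Hdac2* WT replicate 2. Without all 3 *Htt*+/+ mice of series A, 815 genes were called, 296 up and 519 down, with 113 of the 169 among them and 161 of the 169 in the same direction. That fit estimated its surrogate variables anew, while fits without a single library kept those of the full set. The counts of 64 and 815 thus differ in more than the libraries left out.

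Values of the called genes within an ID series are a description, since libraries of all 3 series took part in the calls. Outside chromosome 17 below 45 Mb, the median log2 fold change of the 105 falling genes was −0.13 in A, −0.33 in V and −0.14 in Z, and that of the 42 rising genes was 0.14, 0.22 and 0.10. *Htt* groups of series V did not overlap in 31 of the 169 called genes, beside 116 of all 17346 genes tested (0.669%). In series A this held for 39 called genes and 429 of all (2.47%), and in series Z, where a fit of its own called 0 genes, for 2 and 27 (0.156%). Whether the effect differs between series was not tested.

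Genes that mark MSNs of both pathways were lower in mice with the expanded allele. Of 24 tested, 8 fell and 0 rose, 23 lay below 0, and their median log2 fold change was −0.09. Their summed level was 18058, 21565 and 22898 CPM (lowest, median and highest) in *Htt*+/+ mice and 15800, 18306 and 20817 CPM in *Htt* Q111/+ mice, and the most abundant of them was *Arpp21*. In series V the sums did not overlap, with 19599 to 22852 CPM in *Htt*+/+ and 15800 to 18329 CPM in *Htt* Q111/+ mice. They overlapped in series A (19869.5 to 22125.8 and 18301.9 to 20816.9 CPM) and in Z (18058 to 22897.6 and 15895.8 to 20794.5 CPM). In bulk tissue, fewer MSNs and less RNA of these genes in each MSN cannot be told apart. Without the 3 *Htt*+/+ mice of series A, 13 of the 24 fell, in a fit where 519 of all 17346 genes fell, in place of 119.

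*Ppp1r1b* encodes DARPP-32, which becomes an inhibitor of protein phosphatase 1 once protein kinase A has phosphorylated it. It stood at 1419, 1677 and 1988 CPM (lowest, median and highest) in *Htt*+/+ mice and at 1012, 1442 and 1803.4 CPM in *Htt* Q111/+ mice. The groups overlapped, yet 18 of 18 *Htt* Q111/+ libraries lay below the *Htt*+/+ median of their own *Hdac2* genotype. The log2 fold change was −0.23 (SE 0.0332, adjusted p = 0.000679), with −0.13, −0.44 and −0.30 in series A, V and Z. The *Ppp1r1b* promoter also drives the Cre transgene of the *Hdac2* KO mice, and in the *Hdac2* WT mice, which lack Cre, the value was −0.28.

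Of the genes whose products make or break down cAMP, *Adcy5*, *Pde1b* and *Pde10a* fell. *Adcy5*, the main adenylyl cyclase of the striatum, had 1640, 1791 and 1986 CPM in *Htt*+/+ mice and 1238, 1491 and 1746 CPM in *Htt* Q111/+ mice. All 18 *Htt* Q111/+ libraries were below the *Htt*+/+ median of their *Hdac2* genotype, and the groups did not overlap in series V. Its log2 fold change was −0.20 (SE 0.0361, adjusted p = 0.00306), with −0.08 in series A, −0.46 in V and −0.21 in Z. *Pde1b*, a phosphodiesterase activated by calcium and calmodulin, had 1557, 1823 and 2031 CPM in *Htt*+/+ and 1325, 1535 and 1838 CPM in *Htt* Q111/+ mice. Here too 18 of 18 libraries were lower, and series V showed no overlap. The log2 fold change of *Pde1b* was −0.20 (SE 0.0378, adjusted p = 0.00476).

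*Pde10a*, the phosphodiesterase that hydrolyses cAMP and cGMP in MSNs, lies on chromosome 17 from position 8525372 and so in the marked region below 45 Mb. It had 680, 863 and 1134 CPM in *Htt*+/+ mice and 458, 687 and 909 CPM in *Htt* Q111/+ mice. The groups overlapped over all libraries and did not in series V. Its log2 fold change was −0.25 (SE 0.0443, adjusted p = 0.00283, 16 of 18 libraries lower) and −0.31 without the 3 *Htt*+/+ mice of series A (adjusted p = 0.000117). *Arpp21*, a phosphoprotein under the control of cAMP, had 1706, 2239 and 2711 CPM in *Htt*+/+ and 1453, 1790 and 2255 CPM in *Htt* Q111/+ mice. Its groups overlapped over all libraries and stayed apart within series A and within V. The log2 fold change was −0.22 (SE 0.0418, adjusted p = 0.00526, 17 of 18 libraries lower).

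Over the whole list for cAMP and DARPP-32 signalling, 6 of 34 genes fell and 0 rose, 22 lay below 0 and 12 above, and the median log2 fold change was −0.04. Without the 3 *Htt*+/+ mice of series A, 13 fell and 1 rose, beside 519 falling and 296 rising genes over all tested. Of 19 genes for regulators of G-protein signalling, the GTPase-activating proteins that end the signal of a receptor, 1 fell. This was *Rgs9*, whose product works at dopamine and opioid receptors of MSNs. It had 788, 868 and 981 CPM in *Htt*+/+ mice and 562, 737 and 906 CPM in *Htt* Q111/+ mice, which overlapped except in series V (log2 fold change −0.19, SE 0.0343, adjusted p = 0.00368, 16 of 18 lower). *Rgs4*, the most abundant of the list, had a log2 fold change of −0.21 that missed the threshold (adjusted p = 0.119).

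**Figure D1:**
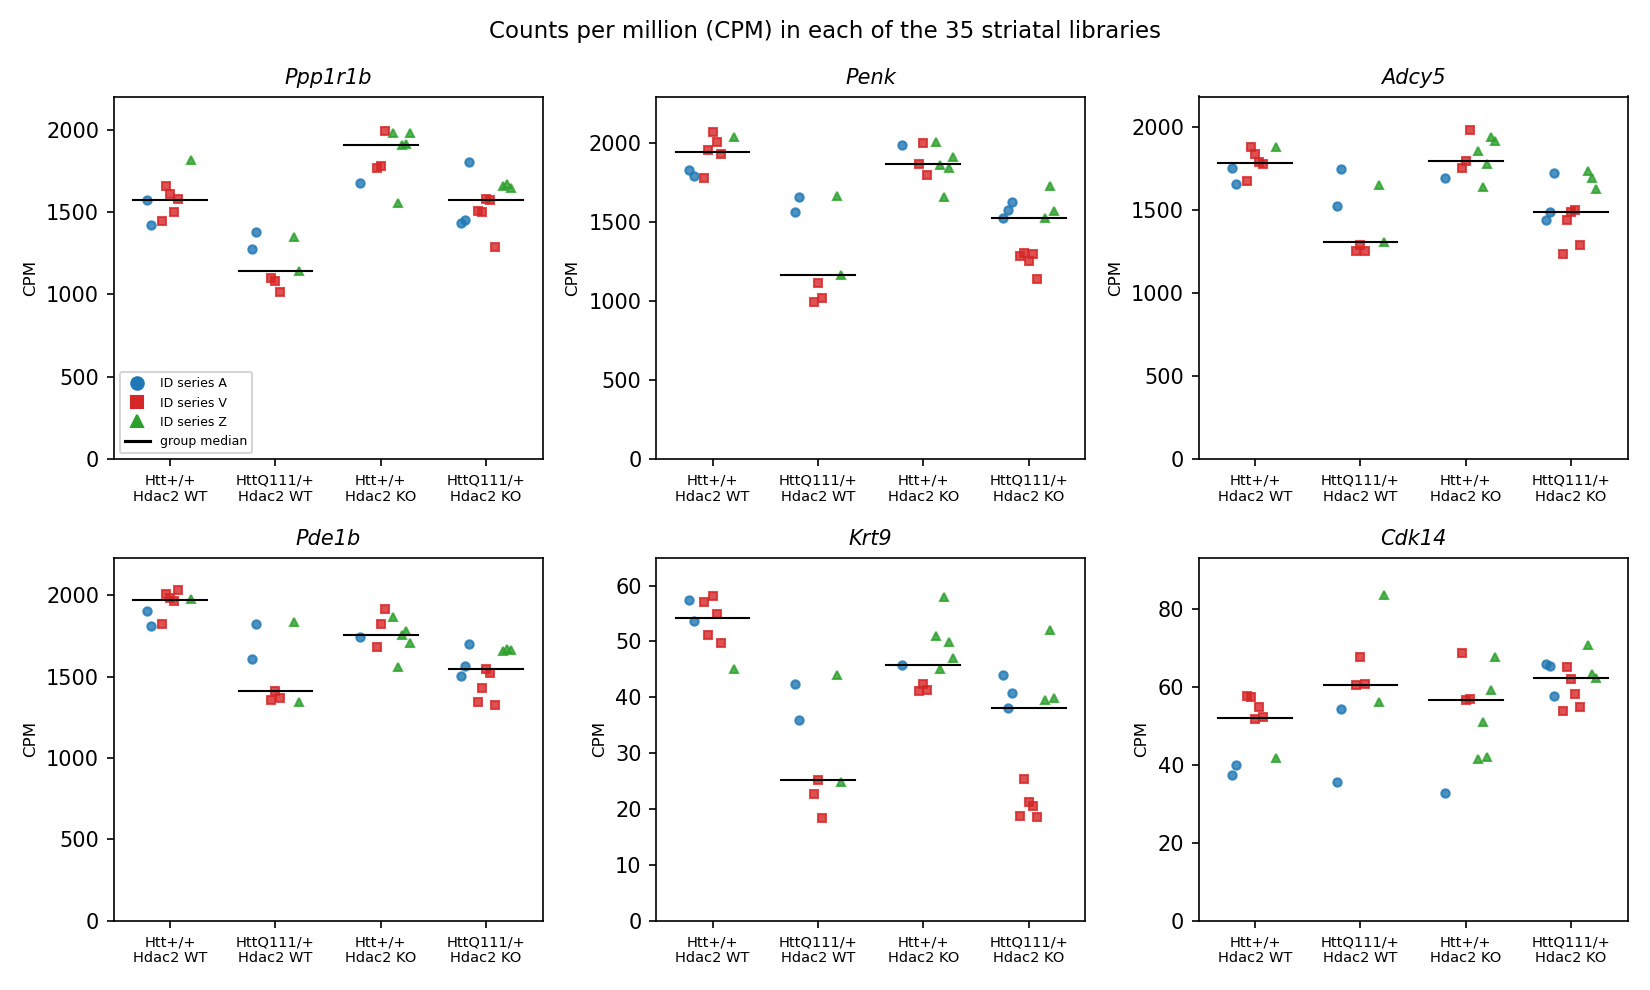
CPM of *Ppp1r1b*, *Penk*, *Adcy5*, *Pde1b*, *Krt9* and *Cdk14* in each of the 35 libraries, by genotype group, with ID series shown by colour and marker and a black line at each group median. In the first 5 genes the *Htt* Q111/+ medians lie below the *Htt*+/+ medians in both *Hdac2* backgrounds, and in *Cdk14* they lie above.

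Most markers of the indirect pathway fell. Of 9 tested, 5 fell and 1 rose, and the median log2 fold change was −0.16. Their summed level was 2475, 2734 and 2961 CPM in *Htt*+/+ and 1557, 2144 and 2578 CPM in *Htt* Q111/+ mice, with *Penk* as the most abundant. In series V the sums ran from 2555 to 2958 CPM in *Htt*+/+ and from 1557 to 2034 CPM in *Htt* Q111/+ mice, without overlap. The sums stayed apart in series A as well and overlapped in Z. Within series A the groups also stayed apart for *Penk*, which makes up much of the sum, and overlapped for *Gpr6*, *Adora2a* and *Drd2*. The 5 falling genes became 2 without *Htt* Q111/+ *Hdac2* KO replicate 8 or *Htt*+/+ *Hdac2* KO replicates 2 or 3, and 3 without *Htt*+/+ *Hdac2* KO replicate 1. Without the 3 *Htt*+/+ mice of series A, 6 of the 9 fell, beside the same 519 over all genes.

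*Penk* encodes the precursor of the enkephalins. It had 1660, 1910 and 2070 CPM in *Htt*+/+ mice and 995, 1414 and 1729 CPM in *Htt* Q111/+ mice. All 18 *Htt* Q111/+ libraries were below the *Htt*+/+ median of their *Hdac2* genotype, and the groups did not overlap within series A or within series V. The log2 fold change was −0.41 (SE 0.0613, adjusted p = 0.000713), with −0.23, −0.75 and −0.32 in series A, V and Z. *Gpr6*, an orphan receptor that raises cAMP in indirect-pathway MSNs, had 80.6, 97.4 and 112 CPM in *Htt*+/+ and 64.5, 82.8 and 98.5 CPM in *Htt* Q111/+ mice. The groups overlapped except in series V, and 17 of 18 libraries were lower (log2 fold change −0.24, SE 0.0421, adjusted p = 0.00283).

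The receptors that define the pathway fell as well, with less support. *Adora2a* had 361, 428 and 495 CPM in *Htt*+/+ and 247, 360 and 436 CPM in *Htt* Q111/+ mice, overlapping, with a log2 fold change of −0.23 (SE 0.0534, adjusted p = 0.0266, 16 of 18 lower). *Drd2* had 181, 220 and 273 CPM in *Htt*+/+ and 152, 188 and 212 CPM in *Htt* Q111/+ mice, also overlapping, with −0.15 (SE 0.0352, adjusted p = 0.0279, 15 of 18 lower). The calls of both were lost without *Htt* Q111/+ *Hdac2* KO replicate 8 or without *Htt*+/+ *Hdac2* KO replicate 1, 2 or 3, that of *Adora2a* also without *Htt*+/+ *Hdac2* KO replicate 6 and that of *Drd2* without *Htt*+/+ *Hdac2* WT replicate 2, with adjusted p up to 0.0788 for *Adora2a* and 0.0867 for *Drd2*. *Ecel1*, an endopeptidase-like protein of the same list, rose by a log2 fold change of 0.13 (adjusted p = 0.0231, 11 of 18 higher), with −0.08 within series Z, and was not called without *Htt*+/+ *Hdac2* KO replicate 1 (adjusted p = 0.215).

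Of 10 markers of the direct pathway tested, 2 fell and 0 rose, and the median was −0.06. Their summed level was 1158, 1373 and 1593 CPM in *Htt*+/+ and 1014, 1313 and 1423 CPM in *Htt* Q111/+ mice. *Drd1* (*Drd1a* in the table), its dopamine receptor and most abundant gene, had 357, 429 and 480 CPM in *Htt*+/+ and 305, 374 and 444 CPM in *Htt* Q111/+ mice, with overlap except in series V (log2 fold change −0.16, SE 0.0315, adjusted p = 0.00728, 15 of 18 lower). *Chrm4*, the muscarinic receptor that opposes DRD1 signalling, had 57.8, 69.4 and 77.1 CPM in *Htt*+/+ and 44.1, 59.1 and 73.1 CPM in *Htt* Q111/+ mice. The ranges overlapped (log2 fold change −0.15, adjusted p = 0.0239, 17 of 18 lower), and the call was lost without *Htt*+/+ *Hdac2* KO replicate 3 (adjusted p = 0.0506). *Tac1*, the substance P precursor, had 277, 312 and 408 CPM in *Htt*+/+ and 232, 334 and 440 CPM in *Htt* Q111/+ mice and passed no threshold (log2 fold change 0.05, adjusted p = 0.579). Whether direct and indirect markers differ was not tested.

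Among 31 neuropeptides and their receptors, 2 fell, 0 rose and the median was 0.01. Beside *Penk* this was *Sstr5*, a somatostatin receptor on chromosome 17 from position 25489875, at 0.586 to 10.6 CPM in *Htt*+/+ and 0.699 to 9.82 CPM in *Htt* Q111/+ mice. The groups overlapped almost fully (log2 fold change −1.17, adjusted p = 0.0280, 14 of 18 lower), the value within series Z was 0.09, and the call was lost without any 1 of 7 libraries (adjusted p up to 0.123).

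Of 34 receptors for dopamine, serotonin, acetylcholine, adenosine and cannabinoids, 5 fell and 2 rose, with a median log2 fold change of −0.02. The falling ones were *Htr4*, *Drd1a*, *Chrm4*, *Adora2a* and *Drd2*; they numbered 3 without *Htt* Q111/+ *Hdac2* KO replicate 8 or *Htt*+/+ *Hdac2* KO replicate 1 or 2, and 2 without *Htt*+/+ *Hdac2* KO replicate 3. With 1 library left out the 2 rising ones, *Htr2a* and *Htr2c*, became as few as 0. *Htr4*, a serotonin receptor coupled to adenylyl cyclase, had 3.79, 5.57 and 7.49 CPM in *Htt*+/+ and 3.16, 4.76 and 9.11 CPM in *Htt* Q111/+ mice, overlapping (log2 fold change −0.37, SE 0.0708, adjusted p = 0.00565, 15 of 18 lower). *Htr2a*, a serotonin receptor that acts through phospholipase C, rose from a median of 10.7 to 14.3 CPM, with ranges of 5.93 to 15.3 and 8.48 to 25.0 CPM that overlapped. Its log2 fold change was 0.35 (SE 0.0827, adjusted p = 0.0308, 14 of 18 higher), and the call was lost without any 1 of 9 libraries (adjusted p up to 0.0970). *Cnr1*, the cannabinoid receptor of MSN terminals and the most abundant of the list, did not pass (log2 fold change −0.20, adjusted p = 0.388).

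Over 49 glutamate receptors and postsynaptic scaffolds, 1 fell (*Homer1*), 1 rose (*Lrrtm4*) and the median was −0.02, and without the 3 *Htt*+/+ mice of series A 10 fell and 1 rose, beside 519 and 296 over all genes. *Homer1*, a postsynaptic scaffold that binds metabotropic glutamate receptors and has a short form induced by activity, had 275, 390 and 566 CPM in *Htt*+/+ mice and 196, 303 and 485 CPM in *Htt* Q111/+ mice. Although the groups overlapped, 14 of 18 libraries were lower, with a log2 fold change of −0.26 (SE 0.0431, adjusted p = 0.00142) and −0.31, −0.61 and −0.16 in series A, V and Z. *Baiap2* (IRSp53), which is not on this list, links membranes to actin in dendritic spines and had 500, 540 and 678 CPM in *Htt*+/+ and 398, 486 and 568 CPM in *Htt* Q111/+ mice. Its groups stayed apart within series V (log2 fold change −0.14, SE 0.0209, adjusted p = 0.000713, 16 of 18 lower). *Lrrtm4*, a synaptic adhesion protein, rose from a median of 46.6 to 53.5 CPM with overlap (log2 fold change 0.14, adjusted p = 0.0168, 17 of 18 higher), and was not called without *Htt*+/+ *Hdac2* KO replicate 1 (adjusted p = 0.0737).

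Of 26 immediate-early genes, which are induced within minutes of neuronal activity, 2 fell and 0 rose, 22 lay below 0 and the median log2 fold change was −0.11, or −0.16 to −0.06 with 1 library left out. The 2 were *Jun* and *Homer1*, and *Homer1* is also counted among the postsynaptic scaffolds above. Within the ID series the median was −0.18 in A, −0.43 in V and −0.05 in Z. *Jun*, a subunit of the transcription factor AP-1, had 18.2, 21.7 and 29.8 CPM in *Htt*+/+ and 15.1, 17.4 and 21.6 CPM in *Htt* Q111/+ mice. The groups overlapped, with 17 of 18 libraries lower (log2 fold change −0.25, SE 0.0601, adjusted p = 0.0316), and the call was lost without any 1 of 8 libraries (adjusted p up to 0.195). *Egr1*, the most abundant of the list, had 189, 422 and 647 CPM in *Htt*+/+ and 146, 357 and 598 CPM in *Htt* Q111/+ mice. With 9 of 18 libraries lower it was not called (log2 fold change −0.10, adjusted p = 0.4934).

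Ion channels changed in single subunits. Of 80 potassium channel subunits, 2 fell and 1 rose, with a median of −0.01, and of 37 subunits of voltage-gated calcium and sodium channels, 2 fell and 1 rose, with the same median. *Scn4b*, the β4 subunit that speeds reopening of sodium channels, had 1761, 2245 and 3016 CPM in *Htt*+/+ and 1171, 1760 and 2454 CPM in *Htt* Q111/+ mice. The groups overlapped except in series V, and 17 of 18 libraries were lower (log2 fold change −0.27, SE 0.0637, adjusted p = 0.0252). The call of *Scn4b* was lost without *Htt* Q111/+ *Hdac2* KO replicate 8 or *Htt*+/+ *Hdac2* KO replicate 3 (adjusted p up to 0.0637). *Cacna2d3*, an auxiliary calcium channel subunit, fell from a median of 347 to 321 CPM and did not overlap in series V (log2 fold change −0.15, SE 0.0283, adjusted p = 0.00570, 15 of 18 lower). *Kcnab1*, a β subunit that makes potassium currents inactivate, had 334, 418 and 527 CPM in *Htt*+/+ and 312, 357 and 458 CPM in *Htt* Q111/+ mice, overlapping (log2 fold change −0.18, SE 0.0410, adjusted p = 0.0204, 16 of 18 lower).

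*Kcng1*, a subunit that forms potassium channels only together with others, rose. It had 35.7, 43.9 and 63.4 CPM in *Htt*+/+ and 41.7, 58.6 and 82.4 CPM in *Htt* Q111/+ mice, and the groups stayed apart within series A. The log2 fold change was 0.30 (SE 0.0555, adjusted p = 0.00433, 14 of 18 higher), with 0.32, 0.48 and 0.01 in series A, V and Z, and the call was lost without *Htt*+/+ *Hdac2* KO replicate 1 (adjusted p = 0.0632). *Scn3b*, a sodium channel β subunit, rose by 0.14 (adjusted p = 0.0250, 15 of 18 higher), a call lost without the same library (adjusted p = 0.158), and had −0.003278 within series Z. *Kcnh3*, a voltage-gated potassium channel of the forebrain, fell by 0.12 on the log2 scale (adjusted p = 0.0474, 16 of 18 lower), had 0.02 within series A, and was not called without any 1 of 23 libraries (adjusted p up to 0.139).

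Of 41 genes better known from epithelia, a list chosen with earlier results of these data known, 17 were tested and 24 did not pass the count filter. Among the 17, 4 fell and 0 rose, 9 lay below 0 and 8 above, and the median was −0.000694. At an unadjusted p under 0.05, 5 were higher and 4 lower. *Krt9*, a keratin of the skin of palms and soles, had 41.1, 49.8 and 58.2 CPM in *Htt*+/+ mice and 18.4, 30.7 and 52.1 CPM in *Htt* Q111/+ mice. The groups overlapped over all libraries and did not within series A or within series V, where all 8 *Htt* Q111/+ libraries were at or under 25.4 CPM. The log2 fold change was −0.52 (SE 0.0902, adjusted p = 0.00283, 17 of 18 lower), with −0.36, −1.17 and −0.26 in series A, V and Z. *Myo5c*, a myosin that carries secretory vesicles in gland cells, had 4.72, 10.6 and 20.2 CPM in *Htt*+/+ and 3.04, 7.58 and 15.2 CPM in *Htt* Q111/+ mice. Its ranges overlapped widely (log2 fold change −0.43, SE 0.0698, adjusted p = 0.00142, 15 of 18 lower).

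*Dmkn* and *Sbsn*, neighbours on chromosome 7 that encode secreted proteins of the upper epidermis, were the other epithelial genes that fell. *Dmkn* had 21.8, 30.0 and 41.1 CPM in *Htt*+/+ and 13.3, 25.7 and 35.7 CPM in *Htt* Q111/+ mice, overlapping (log2 fold change −0.29, SE 0.0538, adjusted p = 0.00423, 16 of 18 lower). *Sbsn* fell from a median of 23.6 to 19.8 CPM, also overlapping (log2 fold change −0.21, adjusted p = 0.0204, 15 of 18 lower), with −0.02 in series A, −0.35 in V and −0.20 in Z. The call of *Sbsn* was lost without *Htt*+/+ *Hdac2* KO replicate 1 or *Htt*+/+ *Hdac2* WT replicate 2 (adjusted p up to 0.0764).

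Outside the lists, some genes with large falls and a mean log2 CPM of at least 1 are given here, and they were of varied function. The larger falls of *Rps2-ps13* and *Gm10260* are given below. *Ddit4l*, a brake on mTOR signalling, had 7.39, 11.5 and 17.6 CPM in *Htt*+/+ and 2.88, 7.76 and 15.2 CPM in *Htt* Q111/+ mice, which overlapped (log2 fold change −0.52, SE 0.101, adjusted p = 0.00629, 16 of 18 lower). *Rbp4*, the carrier of retinol in blood, had 13.8, 19.5 and 26.4 CPM in *Htt*+/+ and 8.81, 15.2 and 21.9 CPM in *Htt* Q111/+ mice, with overlap (log2 fold change −0.38, SE 0.0679, adjusted p = 0.00306, 17 of 18 lower). *Plk5*, a polo-like kinase of neurons, had 16.9, 21.4 and 25.1 CPM in *Htt*+/+ and 8.99, 16.1 and 20.7 CPM in *Htt* Q111/+ mice, apart within series V. Its log2 fold change was −0.38 (SE 0.0744, adjusted p = 0.00663, 17 of 18 lower). *Fndc9*, *Sec14l3* and *Melk* fell by 0.34, 0.49 and 0.34 on the log2 scale, with adjusted p of 0.00629, 0.0204 and 0.0299 and 13, 16 and 14 of 18 libraries lower. Calls were lost without *Htt*+/+ *Hdac2* KO replicate 1 for *Plk5* (adjusted p = 0.0524), *Fndc9* (0.0856) and *Sec14l3* (0.0935), for *Sec14l3* also without *Htt*+/+ *Hdac2* KO replicate 3, and for *Melk* without any 1 of 7 libraries (up to 0.0871).

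*Rps2-ps13*, a processed ribosomal pseudogene on chromosome X, showed the largest fall of all named genes, and its identity as a separate transcript is uncertain. It had 0.943, 53.6 and 58.4 CPM in *Htt*+/+ and 0.839, 1.40 and 66.0 CPM in *Htt* Q111/+ mice, so that libraries of either *Htt* genotype were near 1 CPM or above 50. Its log2 fold change was −3.94 (adjusted p = 0.000713, 12 of 18 lower), with −5.41 in series A, −0.42 in V and −0.27 in Z. It was not called with ID series A left out (−1.33, adjusted p = 0.248).

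*Htt* itself had slightly lower counts in the mice with the expanded allele. It had 173, 194 and 213 CPM in *Htt*+/+ and 119, 180 and 190 CPM in *Htt* Q111/+ mice, and while the ranges overlapped, 18 of 18 *Htt* Q111/+ libraries were below the *Htt*+/+ median of their *Hdac2* genotype. The log2 fold change was −0.10 (SE 0.0250, adjusted p = 0.0456), with −0.08, −0.24 and −0.07 in series A, V and Z. The call was lost without any 1 of 21 libraries (adjusted p up to 0.110). By the study's description, the knock-in allele holds human exon 1 and part of human intron 1, and reads were counted on the mouse genome. Whether reads of that part were lost in the carriers was not tested. *Htt* was the only called gene of 164 tested within 10 Mb of it on chromosome 5 (0.610%), and of 12 tested members of the list for huntingtin and its interactors the only one called.

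Rising genes were fewer than falling ones. *Cdk14*, a cyclin-dependent kinase that promotes Wnt signalling, had 32.7, 52.3 and 68.7 CPM in *Htt*+/+ and 35.5, 61.4 and 83.7 CPM in *Htt* Q111/+ mice. The groups overlapped widely, with 15 of 18 libraries higher (log2 fold change 0.40, SE 0.0655, adjusted p = 0.00142) and 0.42, 0.09 and 0.47 in series A, V and Z. Without the 3 *Htt*+/+ mice of series A its value was 0.18 and it was not called (adjusted p = 0.145). *Pcsk1*, the convertase that cleaves prohormones in dense-core vesicles, had 7.21, 10.5 and 15.6 CPM in *Htt*+/+ and 7.80, 12.7 and 19.9 CPM in *Htt* Q111/+ mice. These also overlapped (log2 fold change 0.39, SE 0.0694, adjusted p = 0.00331, 13 of 18 higher), and the value without the 3 mice was 0.37 (adjusted p = 0.000852). Within series A, V and Z *Pcsk1* had 0.27, 0.37 and 0.06. *Cd200*, a neuronal ligand for an inhibitory receptor of microglia, rose from a median of 61.4 to 71.2 CPM with overlap (log2 fold change 0.13, SE 0.0250, adjusted p = 0.00728, 15 of 18 higher).

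*Cfap65* and *Dnah6*, which encode parts of motile cilia, were among the rising genes, and no list of cilia genes was tested. *Dnah1*, another dynein gene among the calls, went the other way. It had −0.35 and −0.34 in fits of the *Hdac2* WT and *Hdac2* KO libraries alone. *Cfap65* (*Ccdc108* in the table), a protein of the ciliary axoneme, had 1.16, 2.28 and 4.91 CPM in *Htt*+/+ and 1.72, 3.23 and 7.67 CPM in *Htt* Q111/+ mice. The ranges overlapped, with 17 of 18 libraries higher (log2 fold change 0.57, SE 0.107, adjusted p = 0.00498), and without the 3 *Htt*+/+ mice of series A it was not called (0.39, adjusted p = 0.0513). *Dnah6*, an axonemal dynein, had 0.801, 1.67 and 5.24 CPM in *Htt*+/+ and 0.938, 2.35 and 10.6 CPM in *Htt* Q111/+ mice, with a log2 fold change of 0.49 (adjusted p = 0.0397, 13 of 18 higher). This overlapped as well, the series values were 1.40 in A, 0.34 in V and 0.31 in Z, and the call was lost without any 1 of 16 libraries (adjusted p up to 0.147). Of 5 tested markers of ependymal cells, which bear motile cilia, 0 were called by edgeR and 2 rose at an unadjusted p under 0.05, with 0 calls by DESeq2 and by limma-voom. All 5 lay above 0 with a median of 0.24, which was 1.02 within series A, 0.01 in V and −0.04 in Z. Their summed level, with *Foxj1* as the most abundant, was 9.40, 9.96 and 10.7 CPM in the 3 *Htt*+/+ mice of series A and ran from 10.8 to 40.9 CPM in its 5 *Htt* Q111/+ mice. The part of ependymal cells in the change of *Cfap65* and *Dnah6* was not tested.

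The other genes with large rises rested on less. *Pcsk4*, *Macrod1*, *Robo3*, *Mro*, *Miat* and *Gm14169* rose by log2 fold changes of 0.38, 0.30, 0.51, 0.29, 0.26 and 0.23, in 15, 17, 10, 17, 11 and 17 of 18 libraries. Taken in that order, they had adjusted p of 0.0204, 0.0207, 0.0317, 0.0437, 0.0324 and 0.0374. *Macrod1* was not called without *Htt*+/+ *Hdac2* KO replicate 1 (adjusted p = 0.0935), and *Pcsk4* not without that library or *Htt* Q111/+ *Hdac2* WT replicate 7 (up to 0.0696). The calls of *Robo3*, *Mro*, *Miat* and *Gm14169* were lost without any 1 of 10, 21, 9 and 14 libraries, with adjusted p up to 0.217, 0.180, 0.112 and 0.0980. In a fit of the *Hdac2* WT libraries alone, *Pcsk4* had −0.14. *Robo3*, a receptor that guides commissural axons, had 0.90 within series A, 0.07 in V and 0.04 in Z.

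Axon guidance as a list showed 2 rising genes and 1 falling gene of 71, with a median of −0.000212. Beside *Robo3*, *Ephb6* rose by 0.13 (adjusted p = 0.0387, 14 of 18 higher), and *Efnb3*, an ephrin, fell by 0.10 on the log2 scale (adjusted p = 0.0276, 10 of 18 lower), with 0.02 within series Z. The call of *Ephb6* was lost without any 1 of 14 libraries and that of *Efnb3* without any 1 of 6 (adjusted p up to 0.187 and 0.228). Of 22 glycolysis genes, 1 fell: *Gpd1*, which links glycolysis to glycerol synthesis, had 40.4, 54.3 and 81.1 CPM in *Htt*+/+ and 33.9, 46.1 and 66.4 CPM in *Htt* Q111/+ mice. The groups overlapped, and 18 of 18 libraries were lower (log2 fold change −0.22, SE 0.0425, adjusted p = 0.00728). Of 77 heat shock and DnaJ chaperone genes, *Hspa2* rose by 0.13 (adjusted p = 0.0274, 17 of 18 higher) and *Bag4*, a co-chaperone, fell by 0.12 (adjusted p = 0.0204, 14 of 18 lower). *Bag4* was not called without *Htt* Q111/+ *Hdac2* WT replicate 7 (adjusted p = 0.0553), and *Hspa2* not without that library, *Htt*+/+ *Hdac2* KO replicate 1 or 3 or *Htt*+/+ *Hdac2* WT replicate 2 (up to 0.180).

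**Figure D2:**
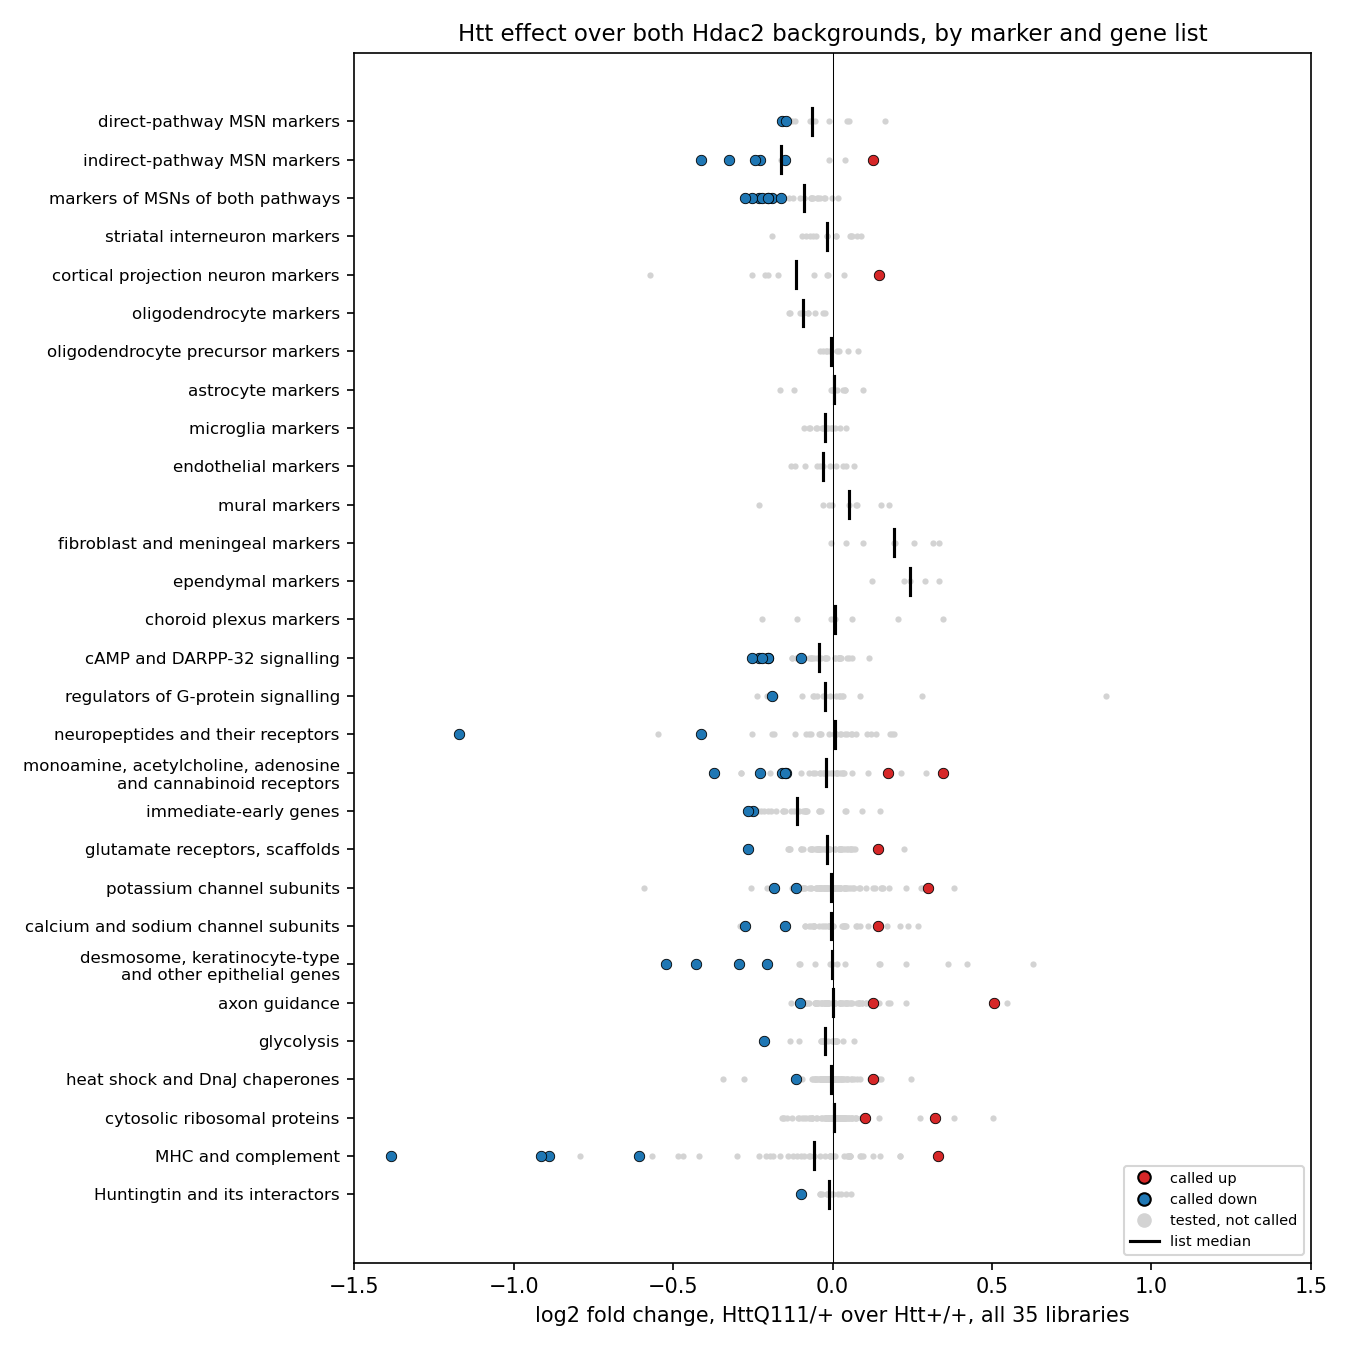
Log2 fold change (*Htt* Q111/+ against *Htt*+/+) of each tested gene in the lists of cell type markers and in the gene lists with at least 1 call, with called genes in colour and a black line at each list median. Lists of markers of indirect-pathway MSNs, MSNs of both pathways and direct-pathway MSNs have medians of −0.16, −0.09 and −0.06.

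Markers of other cell types did not pass the test, with a single exception. Among markers of striatal interneurons (15 tested), oligodendrocytes (12), their precursors (10), astrocytes (12), microglia (14), endothelial cells (11), mural cells (9), fibroblasts (8) and the choroid plexus (7), 0 were called by edgeR, DESeq2 and limma-voom. At an unadjusted p under 0.05, 2 interneuron markers rose, 5 oligodendrocyte, 1 astrocyte, 4 microglial and 2 endothelial markers fell, 2 mural markers rose and 1 fell, and 5 fibroblast markers rose. Interneuron markers had sums of 1671 to 1987 CPM in *Htt*+/+ and 1600 to 2022 CPM in *Htt* Q111/+ mice, astrocyte markers 2737 to 3513 and 2496 to 3401 CPM, and microglial markers 669 to 933 and 688 to 898 CPM. All of these ranges overlapped, and the most abundant interneuron and astrocyte markers, *Gad1* and *Aldoc*, had log2 fold changes of −0.02 and 0.01. The vessel markers gave 241 to 371 and 231 to 351 CPM for endothelial cells and 235 to 362 and 240 to 354 CPM for mural cells, with *Flt1* and *Rgs5* as the most abundant, and again overlapped. Precursor sums were 371 to 464 CPM in *Htt*+/+ and 353 to 464 CPM in *Htt* Q111/+ mice, with *Olig1* as the most abundant.

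Oligodendrocyte markers lay below 0 in 12 of 12, with a median of −0.09 that was −0.11 to −0.04 with 1 library left out, and −0.33 within series A, 0.05 in V and 0.13 in Z. Their sums ran from 6062 to 10615 CPM in *Htt*+/+ and from 5746 to 8730 CPM in *Htt* Q111/+ mice. Fibroblast and meningeal markers lay above 0 in 7 of 8 (median 0.19), with sums of 176 to 280 and 180 to 275 CPM and *Ptgds* as the most abundant (0.26, adjusted p = 0.0798). Choroid plexus sums varied between single libraries, with medians of 36.4 and 39.0 CPM and highest values of 218 CPM in *Htt*+/+ and 151 CPM in *Htt* Q111/+ mice, and *Ttr* was the most abundant. Of 10 tested cortical neuron markers, *Lamp5* rose, with 74.2, 88.4 and 113 CPM in *Htt*+/+ and 81.8, 94.3 and 122.5 CPM in *Htt* Q111/+ mice. These overlapped, and 18 of 18 libraries were above the *Htt*+/+ median of their *Hdac2* genotype (log2 fold change 0.15, adjusted p = 0.0164). The call of *Lamp5* was lost without *Htt*+/+ *Hdac2* WT replicate 2 (adjusted p = 0.0710), and without the library with the high cortical sum it was 0.13 (adjusted p = 0.0498). The cortical list as a whole had a median of −0.11, which ran from −0.22 to 0.09 with 1 library left out and was −0.36 in *Hdac2* WT and 0.06 in *Hdac2* KO mice, and 0.25, −0.03 and 1.055 within series A, V and Z. Its sums were 148 to 326 CPM in *Htt*+/+ and 152 to 686 CPM in *Htt* Q111/+ mice. No defining marker of these lists was at 0 in all libraries.

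For 15 further gene lists edgeR called 0 genes. Those tied to MSN identity or transmission were MSN transcription factors (28 tested, median 0.01), GABA receptors and synthesis (25, 0.01), synaptic vesicle and release genes (43, 0.00) and clustered protocadherins (24, 0.06). At an unadjusted p under 0.05, 10, 2, 6 and 4 genes of these lists passed, and DESeq2 called 3 MSN transcription factors and limma-voom 1. *Meis2*, the most abundant of the MSN transcription factors, just missed the threshold: it had 487, 592 and 640 CPM in *Htt*+/+ and 459, 543 and 601 CPM in *Htt* Q111/+ mice and a log2 fold change of −0.09 (adjusted p = 0.0546, 17 of 18 lower). Histone deacetylases (12 tested, median 0.03) and mismatch repair genes with *Fan1* (11, 0.01) had 2 and 0 genes at an unadjusted p under 0.05 and 0 calls by DESeq2 and limma-voom. The same 2 tools called 0 genes for the proteasome (47 tested, 2 at an unadjusted p under 0.05), nuclear genes of oxidative phosphorylation (87, 2), the circadian clock (16, 1), BDNF signalling (10, 0), p53 targets (11, 0), homeobox and other developmental factors (29, 5) and the interferon response (18, 3). For the extracellular matrix (74 tested, 8 at an unadjusted p under 0.05) both called 1 gene, and for cholesterol synthesis (26, 3) DESeq2 called 1. Interferon response genes lay below 0 in 15 of 18, with a median of −0.15, which ran from −0.18 to −0.01 with 1 library left out and was 0.07 in *Hdac2* WT and −0.26 in *Hdac2* KO mice.

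In the fit with surrogate variables (estimates of unlabelled variation between libraries), chromosome 17 below 45 Mb held more calls than its share of genes. There 22 of 544 tested genes were called (4.04%), 8 up and 14 down, beside 147 of 16802 elsewhere (0.875%; 42 up, 0.250%, and 105 down, 0.625%) and 3 of 300 on the rest of chromosome 17 (1.00%). In 12 of the 22, the 3 *Htt*+/+ mice of series A lay outside the range of the other 32 libraries, and this held for 3 of the 147 elsewhere. Those 3 were *Cdk19* on chromosome 10, *Gm10260* on chromosome 13 and *B230354K17Rik*, which starts just past the limit at position 45433852 of chromosome 17. Without *Htt*+/+ *Hdac2* KO replicate 1 the 22 became 8, and without *Htt*+/+ *Hdac2* WT replicate 2 they became 12. Without all 3, and with surrogate variables estimated anew, 21 of the 544 were called, close to the 22. The calls among the 16802 genes elsewhere rose from 147 to 794 in that fit. Without surrogate variables, all 35 libraries gave 3 calls there and 166 elsewhere, and with sex in their place 3 and 168, so that the larger share was not seen in these fits. Of the 22, 22 had the same direction within series A, 16 in V and 15 in Z.

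*C4b*, which encodes the complement component C4, and *C4a*, which encodes its sex-limited form, lie side by side in the MHC. *C4b* had 30.4, 58.5 and 162 CPM in *Htt*+/+ and 24.7, 44.1 and 60.3 CPM in *Htt* Q111/+ mice, with 124 to 162 CPM in the 3 *Htt*+/+ mice of series A. The log2 fold changes of −0.92 for *C4a* and −0.89 for *C4b* (adjusted p = 0.00242 and 0.00283, 18 and 16 of 18 lower) became −0.24 and −0.29 without them and were not called (adjusted p = 0.0787 and 0.123).

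*Rps18*, a ribosomal protein gene, had 14.3 to 16.0 CPM in the 3 mice and 26.0 to 31.6 CPM in all *Htt* Q111/+ mice, and its log2 fold change of 0.32 (adjusted p = 0.00445, 12 of 18 higher) became 0.01 without them (adjusted p = 0.788). *H2-T22*, a non-classical MHC gene, had 7.84 to 11.6 CPM in the 3 mice, and its 0.33 (adjusted p = 0.00283, 11 of 18 higher) became 0.04 (adjusted p = 0.642). *Bricd5* was low throughout, at 0.106 to 1.02 CPM, and its −1.08 (adjusted p = 0.00423, 14 of 18 lower) became −0.35 (adjusted p = 0.293). *D930048G16Rik*, a locus without a stated biotype, kept its call: it rose from a median of 2.26 to 2.81 CPM with overlap (log2 fold change 0.51, SE 0.0707, adjusted p = 0.000679, 16 of 18 higher) and had 0.36 without the 3 mice (adjusted p = 0.00132). Of the genes described above, *Pde10a* and *Sstr5* also lie in the region.

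Of 46 MHC and complement genes, 1 rose and 4 fell, and all 5 lie on chromosome 17 below 45 Mb. Beside *H2-T22*, *C4a* and *C4b*, these included the pseudogene *C920025E04Rik* at 0.0511 to 1.12 CPM (log2 fold change −1.39, adjusted p = 0.00849, 13 of 18 lower), which turned to 0.26 within series Z and had −0.31 without the 3 *Htt*+/+ mice of series A (adjusted p = 0.425). Of 88 cytosolic ribosomal protein genes, 2 rose, both on chromosome 17, namely *Rps18* and *Rpl7l1*, the latter beyond 45 Mb (0.10, adjusted p = 0.0167, 15 of 18 higher, and −0.03 in a fit of the *Hdac2* WT libraries alone). Neither was called without *Htt*+/+ *Hdac2* KO replicate 1 (adjusted p = 0.0632 and 0.0935) or without the 3 mice. *Gm10260* on chromosome 13, an entry within the interval of another gene and uncertain as a gene of its own, had 22.8 to 24.0 CPM in the 3 mice and 0.910 to 1.92 CPM in the other 32. Its log2 fold change of −1.68 (adjusted p = 0.000871, 6 of 18 lower) turned to 0.14 without them (adjusted p = 0.462).

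**Figure D3:**
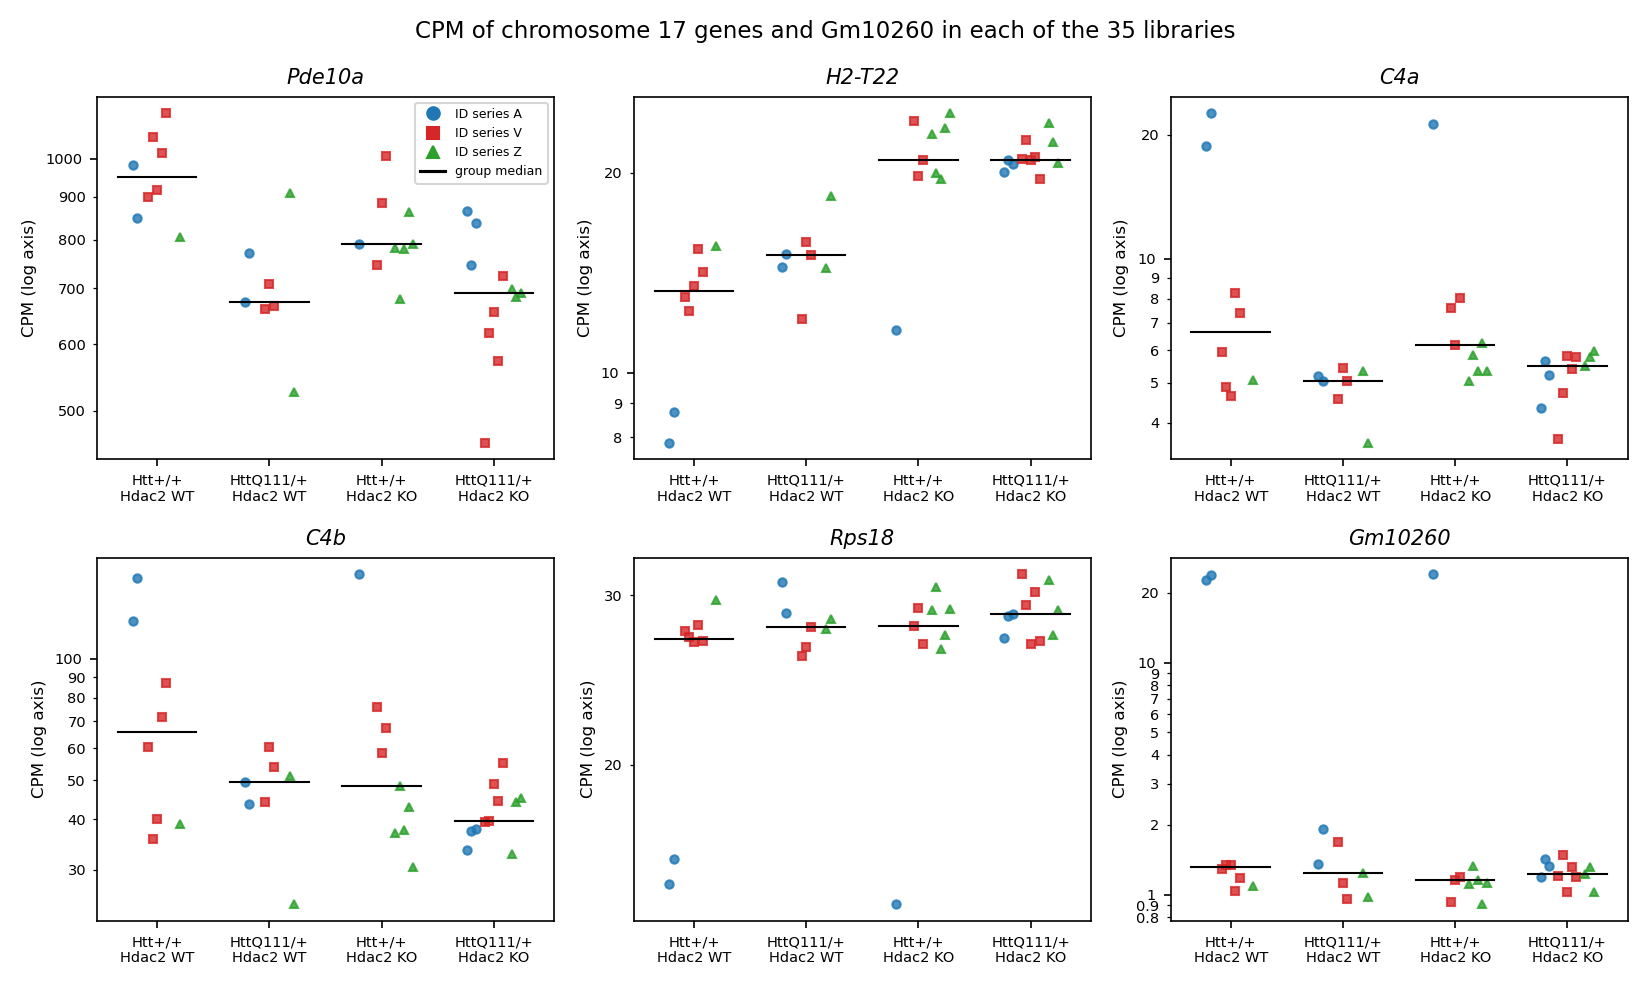
CPM of *Pde10a*, *H2-T22*, *C4a*, *C4b*, *Rps18* and *Gm10260* in each of the 35 libraries on a log axis, by genotype group, with ID series shown by colour and marker and a black line at each group median. For *H2-T22*, *C4a*, *C4b*, *Rps18* and *Gm10260* the 3 *Htt*+/+ libraries of series A lie apart from the others of their group, and for *Pde10a* they do not.

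**Figure D4:**
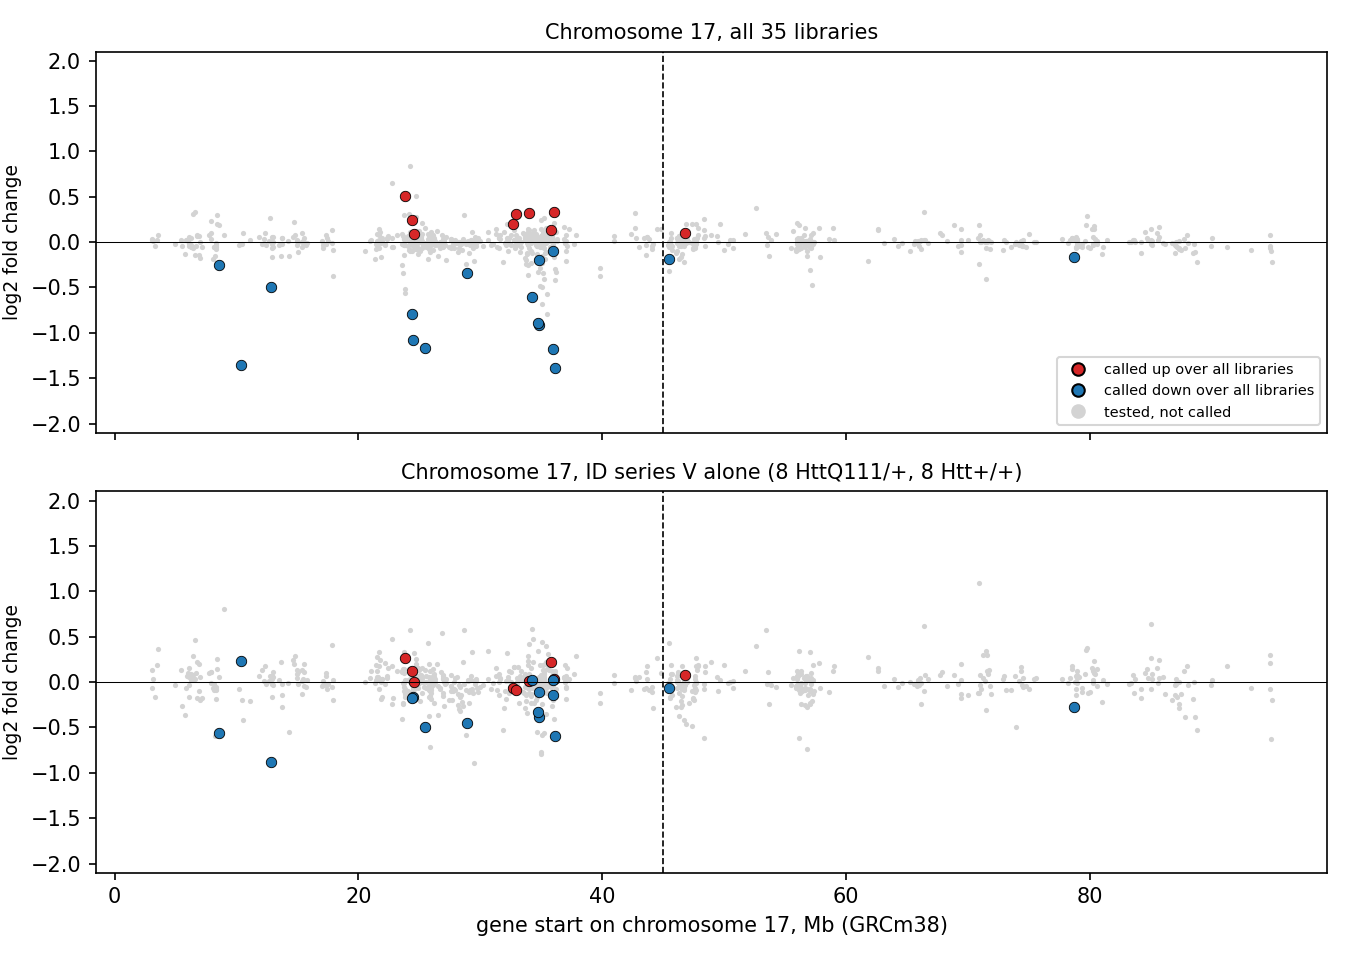
Log2 fold change of genes along chromosome 17 (position in Mb) in all 35 libraries and in ID series V alone, with called genes marked and a dashed line at 45 Mb. Of the 22 genes called below 45 Mb, 16 have the same direction in series V.

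The called genes were chosen for their average over both *Hdac2* backgrounds, so that their values within each are a description. In a model of the 4 groups, the median log2 fold change of the falling genes outside chromosome 17 below 45 Mb was −0.21 in *Hdac2* WT and −0.17 in *Hdac2* KO mice, and that of the rising genes 0.19 and 0.13. *Penk* had −0.50 and −0.36, *Adcy5* −0.22 and −0.19, *Krt9* −0.59 and −0.48, and *Cdk14* 0.34 and 0.44. In fits of each background alone, *Cdk14* had 0.02 in the *Hdac2* WT and 0.42 in the *Hdac2* KO libraries. Called in the *Hdac2* WT mice were 75 genes (0.432%; 1902 at an unadjusted p under 0.05) and in the *Hdac2* KO mice 3 (0.0173%; 1289 at an unadjusted p under 0.05, 7.43%). These 3 were *Cdk14*, *D930048G16Rik* and *Pnmt*, which makes adrenaline from noradrenaline and is named after its values were seen. *Pnmt* had −0.75 in *Hdac2* KO (adjusted p = 0.0367) and 0.14 in *Hdac2* WT mice, where a fit of these libraries alone gave −0.11, and an average of −0.51 (adjusted p = 0.0495).

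These counts do not by themselves show that the effect differs between the backgrounds. The test of the difference called 1 gene (0.00577%; 976 at an unadjusted p under 0.05, 5.63%), and limma-voom called 1 and DESeq2 3. With sex and ID series in place of the surrogate variables it called 5, and in females alone 119. In 11 other settings it called 0, among them fits without surrogate variables, with edgeR's own count filter and without the 3 *Htt*+/+ mice of series A. The gene was *Fibcd1*, an acetyl-binding receptor named after its values were seen, with −0.33 in *Hdac2* WT and 0.10 in *Hdac2* KO mice (adjusted p of the difference = 0.0152) and an average of −0.08 that did not pass (adjusted p = 0.597, 7 of 18 lower).

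Fits of each background alone share no library. In these, 1626 of 16897 genes had an unadjusted p under 0.05 in the *Hdac2* WT mice, and 1148 of them (70.6%) had the same sign in the *Hdac2* KO mice, beside 56.5% of all genes. Conversely, 892 of 1219 genes from the *Hdac2* KO mice (73.2%) had the same sign in the *Hdac2* WT mice. Outside chromosome 17 below 45 Mb, 228 genes had an unadjusted p under 0.05 in both, 138 of them down in both and 73 up in both. After adjustment, edgeR called 0 genes in the *Hdac2* WT fit and 3 in the *Hdac2* KO fit, *Penk* and *Rps2-ps13* among them.

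Promoter sequences, 250 bases before to 50 after the start of a RefSeq transcript on GRCm38.p6, were held for 12431 of the 17346 tested genes, and 3 motifs were searched on both strands. The cAMP response element TGACGTCA was present for 418 genes (3.36%), for 4 of 80 falling genes (5%) and 3 of 39 rising genes (7.69%). The EGR site GCGGGGGCG was present for 6.23% of all, 5 of 80 falling (6.25%) and 3 of 39 rising genes (7.69%), and the E-box CACGTG for 11.3%, 8 of 80 (10%) and 2 of 39 (5.13%). A match is a description, not a site or a cause. The promoters of *Gpr6* (chr10:41072241-41072540, minus strand), *Pcsk1* (chr13:75089607-75089906, plus strand) and *Htt* (chr5:34761490-34761789, plus strand) are shown because they hold the full cAMP response element, and that of *Baiap2* (chr11:119942842-119943141, plus strand) because it holds 3 EGR sites. Capitals mark the motif on either strand.
Gpr6: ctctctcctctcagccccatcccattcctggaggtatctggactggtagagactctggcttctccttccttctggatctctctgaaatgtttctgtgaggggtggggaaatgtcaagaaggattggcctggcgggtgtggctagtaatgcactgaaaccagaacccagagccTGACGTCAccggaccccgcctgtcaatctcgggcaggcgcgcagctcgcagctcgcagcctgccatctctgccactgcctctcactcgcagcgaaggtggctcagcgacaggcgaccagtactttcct
Pcsk1: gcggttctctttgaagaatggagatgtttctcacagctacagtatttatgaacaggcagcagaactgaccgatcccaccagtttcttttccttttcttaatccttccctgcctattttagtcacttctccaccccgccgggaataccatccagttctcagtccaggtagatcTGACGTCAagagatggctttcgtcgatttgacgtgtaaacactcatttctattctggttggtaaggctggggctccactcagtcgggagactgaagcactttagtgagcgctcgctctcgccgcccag
Htt: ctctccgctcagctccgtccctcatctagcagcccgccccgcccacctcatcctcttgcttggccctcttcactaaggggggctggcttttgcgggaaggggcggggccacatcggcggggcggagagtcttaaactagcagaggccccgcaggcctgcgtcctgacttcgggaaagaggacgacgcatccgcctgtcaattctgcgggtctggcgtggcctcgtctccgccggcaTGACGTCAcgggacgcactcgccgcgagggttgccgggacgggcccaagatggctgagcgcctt
Baiap2: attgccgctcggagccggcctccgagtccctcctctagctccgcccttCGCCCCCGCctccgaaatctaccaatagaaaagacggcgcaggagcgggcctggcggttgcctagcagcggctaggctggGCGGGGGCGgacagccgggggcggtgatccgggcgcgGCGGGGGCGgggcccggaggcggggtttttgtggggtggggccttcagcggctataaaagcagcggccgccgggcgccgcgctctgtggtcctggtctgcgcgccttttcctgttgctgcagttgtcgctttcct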

How the data were processed

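The counts per gene and library were deposited by the authors, who used GSNAP for alignment of the stranded, paired reads (GRCm38) and bedtools for counting those that aligned uniquely. The table has 39109 entries. Set aside were 92 ERCC spike-ins, 6152 genes with a span of up to 250 nt, and both mitochondrial rRNAs, which left 32863 genes. A gene was tested if any of the 4 genotype groups had 6 or more counts in each of its libraries, which held for 17346. The authors' own list of short genes was held only in part, and the limit of 250 nt stands in for it.

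Counts were fitted in R 4.3.3 with edgeR 4.0.16 (TMM, quasi-likelihood F test in its older form), with *Htt* genotype, *Hdac2* genotype and 9 surrogate variables from sva 3.50.0, and p-values were adjusted over all genes tested (Benjamini-Hochberg, 0.05). The same surrogate variables were used for the 4-group model and its interaction, and new ones for the fits of each *Hdac2* background. Fits without a single library kept those of the full set, and other subsets of libraries, apart from the ID series, had new ones. Fits within an ID series had *Hdac2* genotype and sex and no surrogate variables. limma 3.58.1 (voom), DESeq2 1.42.0 and other filters, covariates and subsets of libraries were run as alternatives. Library totals and shares were compared by permutation (100000 resamples). Figures were drawn in Python 3.11.15 with matplotlib 3.10.9, and the steps were tested on simulated data.

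Genes were named by a rule: *Htt*; the 12 largest rises and falls among called genes with a mean log2 CPM of at least 1, the same sign in both backgrounds and a place outside chromosome 17 below 45 Mb; the 8 smallest adjusted p in each direction; up to 8 called genes on chromosome 17 below 45 Mb; for each list, up to 4 called members and the most abundant; and the defining MSN genes. Some genes the rule selects are not reported here. The gene lists and their members were chosen with earlier results of these data known, while libraries were grouped by the labelled *Htt* genotype. Of the lists, *Gpr52*, *Slc18a3*, *Hap40* and *Rhes* were not in the table under these names.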

Additional observations from a re-analysis of the deposited data

Results flagged for a closer look

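Within groups of 4 to 10 libraries, 246 pairs of a measure and a group were searched for a single library far from the others, and 31 had one. Chance gives about 1 in 20. The group of 11 *Htt* Q111/+ *Hdac2* KO libraries was too large for this search. Values are CPM.

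*Htt*+/+ *Hdac2* KO replicate 1, a mouse of ID series A, stood far from its group in *Gm10260* (24.0), *C4a* (21.2), *C4b* (162), *H2-T22* (11.6), *Rps18* (14.3), *C920025E04Rik* (0.687) and the summed oligodendrocyte markers (10620). *Htt* Q111/+ *Hdac2* WT replicate 7 did so in *Bag4* (79.0), *Miat* (169.6), *Gm14169* (8.21), *Tac1* (231.7) and the summed markers of interneurons (1600) and cortical neurons (686).

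Other libraries stood apart in 1 to 4 measures each. *Htt*+/+ *Hdac2* WT replicate 8 did so in *Dmkn* (27.8), *Fndc9* (26.5) and interneuron markers (1987), and replicate 9 in *Ecel1* (59.2), *Kcnh3* (156.4), astrocyte markers (3304) and fibroblast markers (232.3). *Htt*+/+ *Hdac2* WT replicates 1, 2 and 4 did so in choroid plexus markers (218), *Gm14169* (6.90) and *Dnah6* (5.24). *Htt*+/+ *Hdac2* KO replicate 4 stood apart in *Fndc9* (33.7) and interneuron markers (1954), replicate 8 in *Hspa2* (29.3) and *Jun* (26.6), and replicate 9 in *Sbsn* (28.4) and *Gm14169* (6.95). *Htt* Q111/+ *Hdac2* WT replicate 1 did so in *C920025E04Rik* (0.263) and replicate 5 in *Chrm4* (44.1).

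For *Fibcd1* the interaction of the *Htt* allele with *Hdac2* genotype had an adjusted p of 0.0152 by edgeR quasi-likelihood, with −0.33 in *Hdac2* WT and 0.10 in *Hdac2* KO mice, and in other settings 0 (11 settings) to 119 genes (females alone) passed this test. What sets these libraries and this gene apart was not tested.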

How the results depend on the processing

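Counts of genes called were recomputed under other settings, and counts within 1.5 times the reported ones are not repeated here. Calls for the allele stood at 170 with DESeq2's size factors in edgeR, 172 with limma-voom, 168 with the newer form of edgeR's test, 167 with short genes kept, 220 as the average of the 4-group model and 178 with ID series as a term. Leaving out each library in turn, with the surrogate variables of the full set kept, gave 64 to 231 genes. Of these, 11 to 66 were up, 53 to 165 down and 8 to 25 on chromosome 17 below 45 Mb. Leave-one-out counts were not computed for the effects within each *Hdac2* background or their difference. Where values moved or reversed, the cause was not tested.

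The DESeq2 Wald test called 284 genes (101 up, 183 down), with 166 in *Hdac2* WT mice, 46 in *Hdac2* KO mice and 3 for the difference. Without surrogate variables 169 genes were called, 79 of them among those reported, with 3 on chromosome 17 below 45 Mb, 1 in *Hdac2* KO mice and 0 for the difference. Sex in their place gave 3 on chromosome 17 below 45 Mb, 43 in *Hdac2* WT, 1 in *Hdac2* KO and 0 for the difference. Sex and ID series gave 425 (138 up, 287 down, 11 on chromosome 17 below 45 Mb), 843 in *Hdac2* WT and 5 for the difference. Sex and extraction date gave 275 (83 up, 192 down, 8 on chromosome 17 below 45 Mb), 382 in *Hdac2* WT, 0 in *Hdac2* KO and 0 for the difference. Surrogate variables with *Hdac2* genotype in the null model gave 33 up, 6 in *Hdac2* WT, 8 in *Hdac2* KO and 0 for the difference.

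With the replicate block, the replicate number of the titles as a factor, 12 genes were called (4 up, 8 down, 5 on chromosome 17 below 45 Mb), and 0 in *Hdac2* WT, 0 in *Hdac2* KO and 0 for the difference. Same-numbered libraries had a median r of 0.0376, beside −0.00878 for other pairs. Of 45 same-numbered pairs, 15 had r over 0.1 and the lowest was −0.199. In 8 of 35 libraries the best partner had the same number. How much shared variation the replicate block removes was not tested.

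No count filter gave 32 up, 34 in *Hdac2* WT and 0 for the difference, and filterByExpr 38 in *Hdac2* WT and 0 for the difference. With chromosome 17 below 45 Mb, X and Y out of the adjustment there were 33 up, 32 in *Hdac2* WT and 1 in *Hdac2* KO.

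In subsets of libraries, males alone gave 105 (20 up, 11 on chromosome 17 below 45 Mb), 11 in *Hdac2* WT, 0 in *Hdac2* KO and 0 for the difference. Females alone gave 0 (0 up, 0 down, 0 on chromosome 17 below 45 Mb; 1145 at an unadjusted p under 0.05; 7 residual degrees of freedom), and in the 4-group model 152 in *Hdac2* WT, 20 in *Hdac2* KO and 119 for the difference. *Hdac2* WT libraries alone gave 0 (0 up, 0 down, 0 on chromosome 17 below 45 Mb; 1647 unadjusted) and *Hdac2* KO libraries alone 3 (0 up, 3 down, 0 on chromosome 17 below 45 Mb; 1235 unadjusted). ID series A alone gave 20 (8 up, 12 down, 14 on chromosome 17 below 45 Mb), V alone 656 (198 up, 458 down, 12) and Z alone 0 (0 up, 0 down, 0; 577 unadjusted).

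The next settings were chosen after seeing the data. Without the 3 *Htt*+/+ mice of ID series A, 815 genes were called (296 up, 519 down), 412 in *Hdac2* WT, 7 in *Hdac2* KO and 0 for the difference. With ID series A left out there were 581 (180 up, 401 down), 886 in *Hdac2* WT, 0 in *Hdac2* KO and 0 for the difference. ID series as a term beside surrogate variables gave 162 in *Hdac2* WT, 12 in *Hdac2* KO and 0 for the difference.

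Of the 64 called genes named, 11 changed direction under at least 1, and 32 lost the call without at least 1 library. Log2 fold changes reversed as follows. In series Z alone they were 0.10 for *Gm10260*, −0.00194 for *Rps18*, 0.26 for *C920025E04Rik*, −0.0823 for *Ecel1*, −0.00328 for *Scn3b*, 0.0229 for *Efnb3* and 0.0879 for *Sstr5*, and −0.0598 for *Tac1*, which was not called. In series V alone they were 0.0616 for *Gm10260*, and in series A alone 0.000436 for *Melk* and 0.0156 for *Kcnh3*. Without the 3 *Htt*+/+ mice of series A, *Gm10260* had 0.14. With series A left out, *Gm10260* had 0.00946 and *Tac1* −0.0120. In *Hdac2* WT libraries alone *Rpl7l1* had −0.0291 and *Pcsk4* −0.14, and in females alone *Scn3b* had −0.00244. Small subsets limit what these fits can call, and a count of 0 there does not show that the effect was absent.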
